A study of Mus musculus with 4 samples.

Results

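The genes described here are 9 amino acid transporters of the plasma membrane, chosen by name: Slc1a4, Slc1a5, Slc3a2, Slc7a1, Slc7a5, Slc7a6, Slc38a1, Slc38a2 and Slc43a1. All 9 were among the 26207 genes with values, and all 9 entered the test, since no filter on low values was applied. Expression was measured by bulk RNA-seq in 4 libraries of T helper 2 (Th2) cells from mice, the CD4 helper T cells known for IL-4, IL-5 and IL-13, with spleen as the labelled tissue. One group was given dopamine, a catecholamine, at 10 µM (2 libraries, here called dopamine A and dopamine B), and the other phosphate-buffered saline (PBS; 2 libraries, PBS A and PBS B). The stated purpose was to look for transcriptome changes after dopamine. Mouse strain, age, culture conditions and length of treatment are not given in the labels.

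Activated T cells take up large amounts of amino acids, because they grow, divide and make protein. Transport is shared among families: exchangers and sodium-driven carriers of small neutral amino acids such as glutamine, alanine and serine (Slc1a4, Slc1a5, Slc38a1, Slc38a2), exchangers of large neutral and cationic amino acids that work as a light chain bound to the CD98 heavy chain (Slc7a5 and Slc7a6 with Slc3a2), a carrier of arginine and lysine (Slc7a1) and a facilitative carrier of large neutral amino acids (Slc43a1). Leucine and arginine brought in by these proteins are known signals to mTORC1, the kinase complex that couples nutrients to growth, and Myc and Atf4 are known activators of several of these genes.

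With dopamine, 7 of the 9 transporters rose, 0 fell and 2 did not pass the test. The rises were modest, 1.15-fold to 1.46-fold as ratios of group means. The glutamine exchanger Slc1a5, the arginine carrier Slc7a1 and the CD98 light chain Slc7a6 rose most, each by over 1.4-fold. Slc1a4 was nearly level, and Slc43a1 was lower in both dopamine libraries without passing the threshold. The median log2 fold change of the 9 was 0.36, against -0.081 over all genes and 0.198 over the 8492 abundant genes, defined as those averaging 100 or more. Values are the authors' normalized counts, that is reads per gene divided by 1 size factor per library. Log2 fold changes were computed on log2(value + 1) as dopamine minus PBS, with limma's standard error (SE) and p-values adjusted by Benjamini-Hochberg over all 26207 genes, with 0.05 as the threshold.

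These counts are to be read against the background of the comparison. Over all genes 14.3% were called higher and 7.00% lower. Of the abundant genes, 39.1% were higher and 7.90% lower, and of the genes averaging 500 or more, 48.7% were higher. All transporters but Slc43a1 are abundant genes, and 7 of them average 500 or more. For 7 transporters both dopamine libraries lay above both PBS libraries, a pattern that 60.8% of abundant genes share. Slc43a1 was the only transporter with both dopamine libraries below both PBS libraries, as 30.4% of all genes were. The group ranges overlapped for Slc1a4. For all 9 transporters dopamine B held more than dopamine A, as did 65.2% of abundant genes.

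**Figure D1:**
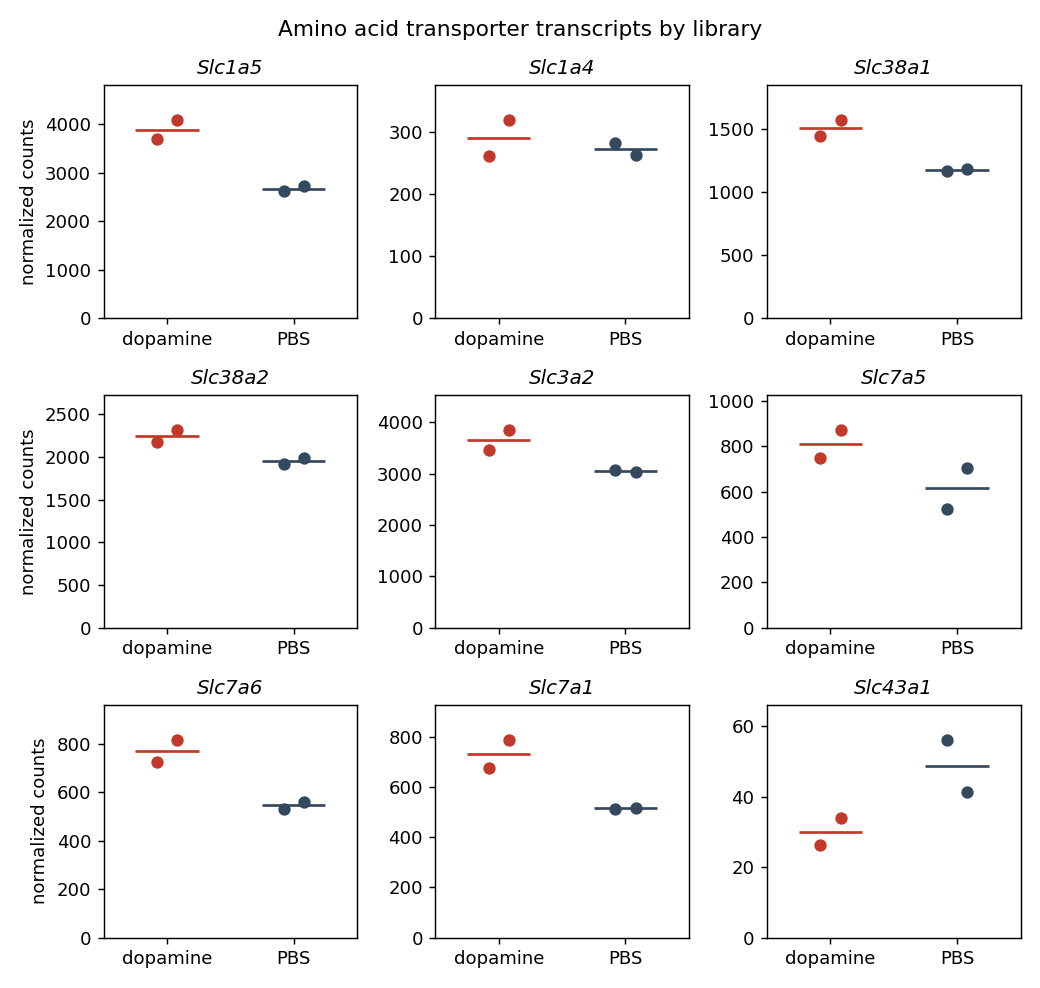
Normalized counts of the 9 transporters (vertical axes, each starting at 0) in the 2 dopamine libraries and the 2 PBS libraries; points are libraries and bars are group means. The dopamine points sit above the PBS points for 7 genes, mix with them for Slc1a4 and sit below them for Slc43a1.

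Among the carriers of small neutral amino acids, Slc1a5, which encodes the glutamine exchanger ASCT2, had the largest rise. It lies on chromosome 7 from 16781340 to 16798274 (plus strand; all locations are of the whole gene in GENCODE M21 on mm10). It had 3693 and 4076 normalized counts in dopamine A and B, against 2611 and 2715 in PBS A and B. The means were 3885 ± 271 and 2663 ± 73.3 (SD, n = 2 libraries each), and the log2 fold change was 0.54 (SE 0.07, 95% interval 0.41 to 0.68, adjusted p = 1.6e-08). The lower dopamine library exceeded the higher PBS library by more than the spread within either group.

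Its paralog Slc1a4 encodes ASCT1, an exchanger of alanine, serine and cysteine, on chromosome 11 from 20302180 to 20332713 (minus strand). It had 261 and 318 normalized counts with dopamine, against 282 and 262 with PBS. The dopamine libraries therefore spanned both PBS values. The log2 fold change was 0.08 (SE 0.12, adjusted p = 0.685), and its 95% interval of -0.16 to 0.33 leaves room for a small change in either direction. The ratio of Slc1a5 to Slc1a4, which no scaling of the libraries can alter, was 14.2 and 12.8 in dopamine A and B, against 9.26 and 10.4 in PBS A and B. The balance between the paralogs was thus shifted towards Slc1a5 in both dopamine libraries, by 0.46 on the log2 scale. With 2 libraries against 2, an exact permutation test of such a ratio cannot go below p = 0.333, so the ratios are given without a test.

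Slc38a1 and Slc38a2 encode the sodium-coupled glutamine and alanine carriers SNAT1 and SNAT2 and are neighbours on chromosome 15, from 96571418 to 96642913 and from 96687392 to 96699730 (both minus strand). Slc38a1 had 1446 and 1566 normalized counts with dopamine, against 1164 and 1184 with PBS (log2 fold change 0.36, SE 0.08, adjusted p = 0.000498). Slc38a2 had 2168 and 2310 with dopamine, against 1914 and 1990 with PBS (log2 fold change 0.20, SE 0.07, adjusted p = 0.042). Neither gene's groups overlapped. The rise of Slc38a2 was the smallest of the 7, 50.1% of abundant genes had a larger log2 fold change, and its call ended when any 1 library was left out (log2 fold change 0.15 to 0.24). The authors' deposited table gives Slc38a2 an adjusted p of 0.0718. The ratio of Slc38a1 to Slc38a2 was 0.667 and 0.678 in dopamine A and B, against 0.608 and 0.595 in PBS A and B, so the neighbours did not move in strict proportion.

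Slc3a2 encodes the CD98 heavy chain, which carries the light chains to the cell surface, on chromosome 19 from 8706882 to 8723369 (minus strand). It had 3465 and 3847 normalized counts in the dopamine libraries, against 3081 and 3039 in the PBS libraries. Both dopamine values were higher, with a gap to PBS that was about as wide as the distance between the dopamine libraries. The log2 fold change was 0.25 (SE 0.07, adjusted p = 0.0036). The call did not hold without PBS A (log2 fold change 0.26, adjusted p = 0.0757), without PBS B (0.24, adjusted p = 0.0773) or without dopamine B (0.18, adjusted p = 0.171).

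Slc7a5 encodes LAT1, the light chain that brings in leucine and other large neutral amino acids, on chromosome 8 from 121881150 to 121907694 (minus strand). In dopamine A and B it had 747 and 871 normalized counts, against 525 and 707 in PBS A and B. The PBS libraries were far apart, and PBS B lay close to dopamine A. The log2 fold change was 0.40 (SE 0.10, 95% interval 0.19 to 0.61, adjusted p = 0.0031). Without PBS A, the shallowest library, it was 0.19 (adjusted p = 0.345), and without dopamine B 0.29 (adjusted p = 0.107), so the call rests on those libraries. Without PBS B it was 0.62 (adjusted p = 0.00233). The authors' deposited table lists Slc7a5 at 0.39 on the log2 scale, with 0.23 as its SE and an adjusted p of 0.237. A predicted gene on the opposite strand, Gm20388, spans Slc7a5 but shares 0 exonic bases with it.

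Slc7a6 encodes a light chain that exchanges cationic for neutral amino acids, and lies on chromosome 8 from 106168857 to 106198706 (plus strand). It had 723 and 814 normalized counts with dopamine, against 532 and 559 with PBS. The groups were well apart (log2 fold change 0.49, SE 0.09, adjusted p = 7.74e-05). Relative to the shared heavy chain, Slc7a6 stood at 0.209 and 0.212 of Slc3a2 in the dopamine libraries, against 0.173 and 0.184 in the PBS libraries. The Slc7a5 to Slc3a2 ratio was 0.215 and 0.226 in dopamine A and B, against 0.17 and 0.233 in PBS A and B. The Slc7a6 transcript was thus higher relative to its partner in both dopamine libraries, by 0.24 on the log2 scale, while the Slc7a5 ratios of the groups overlapped.

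Slc7a1 encodes CAT1, a main route of arginine and lysine into T cells, on chromosome 5 from 148327410 to 148399904 (minus strand). It had 674 and 786 normalized counts with dopamine, against 513 and 516 with PBS. The PBS libraries were almost equal, and both dopamine libraries stood clear of them (log2 fold change 0.50, SE 0.10, adjusted p = 8.4e-05). Slc43a1 encodes LAT3, which carries leucine and related amino acids without a heavy chain, on chromosome 2 from 84838850 to 84863594 (plus strand). It was scarce, with 26.2 and 34 normalized counts from 34 and 35 reads in dopamine A and B, against 56.1 and 41.4 from 33 and 54 reads in PBS A and B. Both dopamine values were below both PBS values. The log2 fold change was -0.67 (SE 0.26, 95% interval -1.20 to -0.14, adjusted p = 0.0632), so the difference was not called.

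**Figure D2:**
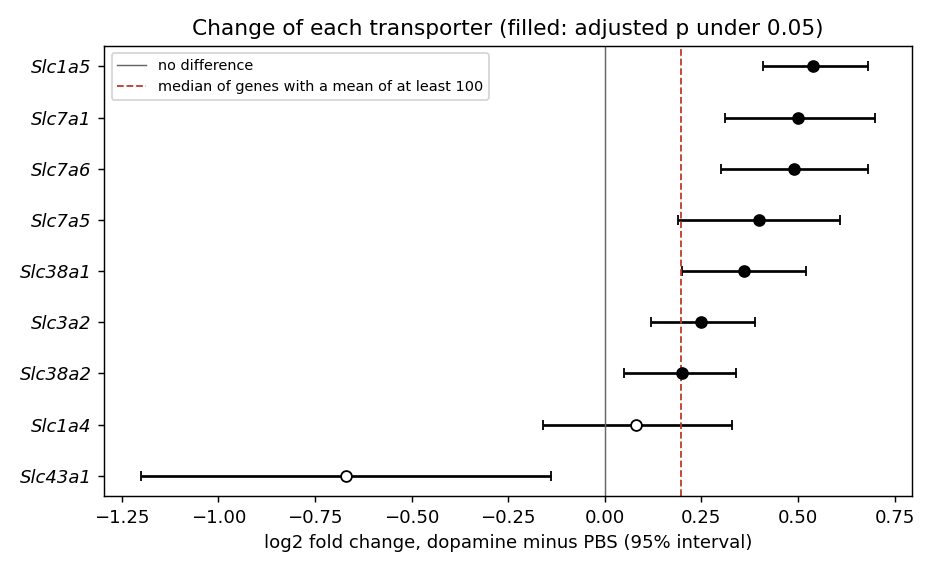
Log2 fold change, dopamine minus PBS (horizontal axis), with its 95% interval for each transporter; filled points passed an adjusted p of 0.05. The solid line marks no difference and the dashed line the median of 0.198 of abundant genes: the interval of Slc1a5 (0.41 to 0.68) lies above the dashed line, that of Slc38a2 (0.05 to 0.34) spans it, and that of Slc43a1 (-1.20 to -0.14) lies below both lines.

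The number of transporters called moved with the scaling of the libraries. When the libraries were rescaled so that abundant genes had a median log2 fold change of 0.003, 3 transporters were called higher (Slc1a5 at 0.35, Slc7a1 at 0.31 and Slc7a6 at 0.30) and 1 lower (Slc43a1 at -0.86, adjusted p = 0.0173). With upper-quartile scaling in edgeR 4 were called higher and 1 lower, and with edgeR's TMM 6 were called higher and 1 lower. With TMM in limma 6 were called higher and 0 lower. In limma on all genes, the share of higher calls among called genes was 67.1% in the authors' scaling, 65.0% with TMM and 36.2% after rescaling on abundant genes. In edgeR on 15329 filtered genes it was 68.9% with DESeq2's size factors, 53.5% with TMM and 39.0% with upper-quartile scaling. Across 17 alternatives Slc1a5, Slc7a1 and Slc7a6 were called higher in each of the 17, Slc38a1 in 16, Slc3a2 and Slc7a5 in 11 and Slc38a2 in 5. Slc43a1 was called lower in 6 of the 16 in which it was tested, with a log2 fold change of -0.89 to -0.46, and Slc1a4 in 0 of 17, with a log2 fold change of -0.11 to 0.22 (adjusted p of at least 0.372).

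**Figure D3:**
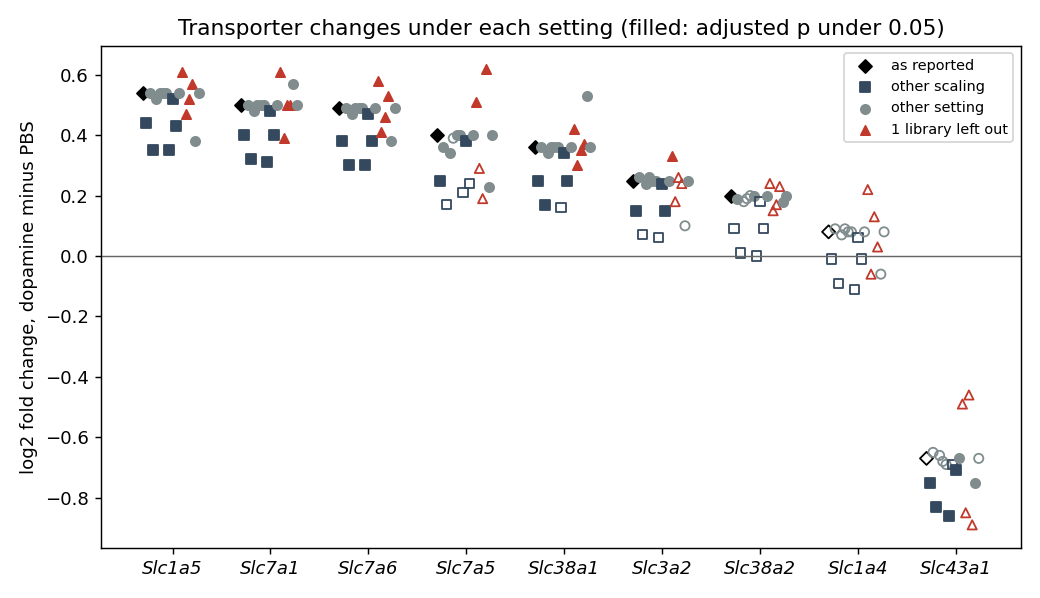
Log2 fold change, dopamine minus PBS (vertical axis), of each transporter as reported (diamonds), with another scaling (squares), with 1 library left out (triangles) and under other settings (circles); filled symbols passed an adjusted p of 0.05. Slc1a5, Slc7a1 and Slc7a6 stay filled and at 0.30 or above throughout, Slc38a2 reaches 0.00, and Slc43a1 stays below 0 throughout.

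Summed over the 9 genes, transporter reads made up 0.121% and 0.131% of the reads assigned to genes in dopamine A and B (95% Wilson intervals 0.119% to 0.123% and 0.129% to 0.133%), against 0.11% and 0.109% in PBS A and B (0.107% to 0.113% and 0.107% to 0.11%). Both dopamine shares were above both PBS shares, and the intervals cover counting error only. Per kilobase of exonic length, Slc3a2 was the most abundant, with 982 and 1090 normalized counts per kilobase with dopamine and 873 and 861 with PBS. Slc1a5 followed with 885 and 977 with dopamine and 626 and 650 with PBS. Then came Slc38a2 at a mean of 253 with dopamine and 221 with PBS, Slc7a5 at 218 with dopamine and 166 with PBS, and Slc7a6 at 168 with dopamine and 119 with PBS. Slc38a1 had 87.4 with dopamine and 68.1 with PBS, Slc1a4 73.6 with dopamine and 69.3 with PBS, and Slc7a1 63.3 with dopamine and 44.6 with PBS. Slc43a1 was the lowest by far, at 5.27 per kilobase with dopamine and 8.52 with PBS. Within a group, library values of neighbours in this order overlapped for Slc1a4 and Slc7a1 with dopamine and for Slc38a1 and Slc1a4 with PBS. The order depends on the length used: per longest transcript, Slc1a5 (1384) stood above Slc3a2 (1300) in dopamine libraries and Slc38a1 stood above Slc7a6 and Slc7a1 above Slc1a4 in both groups.

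**Figure D4:**
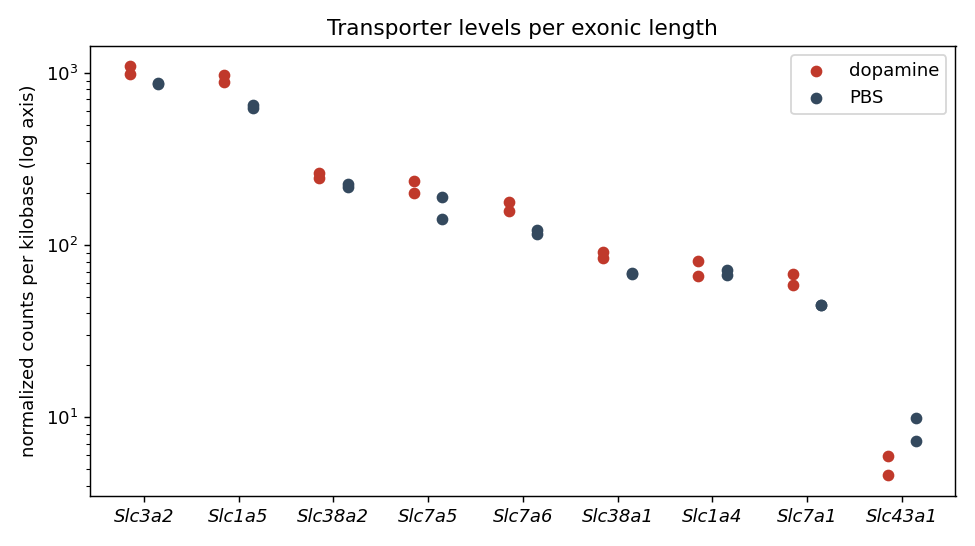
Normalized counts per kilobase of exonic length (log axis) of each transporter in the 2 dopamine and the 2 PBS libraries, one point per library, ordered by the mean over the 4 libraries. Slc3a2 and Slc1a5 lie highest, between 626 and 1090, and Slc43a1 lowest, between 4.59 and 9.81.

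The 9 genes held most of the level per kilobase summed over 50 amino acid transporters, that is the 9 and 41 others listed for the plasma membrane. Their share was 82.7% and 83.2% in the dopamine libraries, against 81.0% and 81.9% in the PBS libraries. The list is from background knowledge, and Slc36a1 in it also stands in the lysosomal list below, so the share is not strictly one of plasma membrane transporters. Of the 41 other transporters measured, 5 rose, 3 fell and 33 did not pass, but 13 of them had at most 20 normalized counts in total over the 4 libraries, and only 7 were abundant genes. Of those 7, 5 rose and 0 fell, where 39.1% of all abundant genes were called higher and 7.90% lower. The 5 and 3 of the 41 stand against 14.3% higher and 7.00% lower over all genes. Over all 41, the counts were 1 higher and 0 lower without dopamine B, 3 and 2 without dopamine A, 4 and 1 without PBS A and 4 and 3 without PBS B. Slc16a10, a carrier of aromatic amino acids, had 254 and 305 normalized counts with dopamine, against 197 and 173 with PBS (log2 fold change 0.59, adjusted p = 0.000606). Slc6a6, the taurine transporter, had 523 and 566 with dopamine, against 394 and 376 with PBS (0.50, adjusted p = 0.000218). Slc38a10 rose by 0.31 on the log2 scale and Slc7a3, another carrier of cationic amino acids, by 0.44. Slc7a11, the light chain of the cystine importer that also uses Slc3a2, had 181 and 173 with dopamine, against 124 and 123 with PBS (0.52, adjusted p = 0.00815). The Slc7a11 call ended without dopamine A (adjusted p = 0.0872), without dopamine B (0.0549), with DESeq2 (0.0824), with upper-quartile scaling (0.0575) and after rescaling on abundant genes (0.105). That of Slc38a10 ended without dopamine B (adjusted p = 0.151), PBS A (0.0549) or PBS B (0.0551), with upper-quartile scaling (0.171) and after the rescaling (0.283). Slc7a3 lost its call without dopamine A (adjusted p = 0.0893), dopamine B (0.111) or PBS B (0.122), with DESeq2 (0.0996), upper-quartile scaling (0.0914) or the GC and length correction (0.0548), and after the rescaling (0.195). Slc16a10 lost its call without dopamine B (adjusted p = 0.0705). With libraries rescaled on abundant genes, 2 of the 41 rose and 3 fell.

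The promoters were searched for letters bound by known activators of these genes. RefSeq sequences (GRCm38.p6, the base assembly of mm10) from 250 bases before to 50 after the annotated start were at hand for 6 of the 9 genes, and not for Slc1a5, Slc38a1 and Slc7a5. They were searched on both strands for CACGTG, the E-box that Myc binds, and for TGATGNAA, the core of the response element of Atf4 with C/EBP partners. The motifs can share bases, and the pair of sites found lies in different genes. Of 32851 such mouse promoters, 7.15% held the E-box and 3.97% the Atf4 element. Among the transporters with a sequence, the E-box was found in Slc43a1, starting 64 bases before the RefSeq start, which lies inside the GENCODE gene given above, and the Atf4 element in Slc1a4, on the reverse strand and starting 4 bases before it. Those sites are shown first, with the motif in capitals, because they belong to the pair of transporters that did not pass the test, followed by the 250 bases upstream of the first listed start of Slc7a1 and Slc7a6, which rose under each of the 17 alternatives and in which no match was found.
Slc43a1, chr2:84840248-84840277, plus strand: gggtctccctcCACGTGgcagccgtgggat
Slc1a4, chr11:20332699-20332728, minus strand: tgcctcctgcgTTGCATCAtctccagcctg
Slc7a1, chr5:148399905-148400154, minus strand: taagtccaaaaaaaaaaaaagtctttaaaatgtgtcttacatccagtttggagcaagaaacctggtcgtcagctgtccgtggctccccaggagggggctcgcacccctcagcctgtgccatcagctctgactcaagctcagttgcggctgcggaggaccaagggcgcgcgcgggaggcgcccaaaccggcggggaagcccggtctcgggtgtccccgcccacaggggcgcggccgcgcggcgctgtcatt
Slc7a6, chr8:106168604-106168853, plus strand: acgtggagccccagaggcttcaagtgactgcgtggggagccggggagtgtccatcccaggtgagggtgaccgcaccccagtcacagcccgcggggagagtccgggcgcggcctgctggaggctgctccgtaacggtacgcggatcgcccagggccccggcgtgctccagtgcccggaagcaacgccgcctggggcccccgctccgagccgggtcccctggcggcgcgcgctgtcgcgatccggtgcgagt
A match is a description of the letters and not evidence of binding, and a missing match says only that those letters were not in that window.

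A list of 25 genes held known transcriptional regulators of these transporters, together with genes of the Atf4 pathway that are not transcription factors. The latter were Eif2ak3, Eif2ak4, Gcn1l1, Trib3 and Chac1. Of the 25, 11 rose and 2 fell, with a median log2 fold change of 0.27. Chac1 (0.71), Gcn1l1 (0.51) and Trib3 (0.37) were among those that rose, and Eif2ak3 (-0.70) among those that fell. All 13 called genes were among the 21 of the list that are abundant genes. Over all abundant genes 39.1% were called higher and 7.90% lower, so nothing particular to the list is read from these counts. Atf4, the transcription factor of the amino acid response, had 3604 and 3771 normalized counts with dopamine, against 2286 and 2452 with PBS (log2 fold change 0.64, adjusted p = 2.96e-10). Myc, which drives T cell growth, had 1170 and 1342 with dopamine, against 751 and 821 with PBS (0.67, adjusted p = 4.2e-08). Irf4, a factor induced by T cell receptor signals, had 13931 and 15265 with dopamine, against 7520 and 7721 with PBS (0.94, adjusted p = 7.08e-18), and its partner Batf rose by 0.85. Atf3, a stress-induced factor, rose by 0.90. After rescaling on abundant genes, 7 of the 25 genes rose and 7 fell. With PBS A left out, fewer rose and more fell than in the main test.

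Among enzymes that use the imported amino acids, that is 35 genes of glutamine, arginine and branched-chain amino acid metabolism together with the methionine cycle (Mat2a, Ahcy) and glutathione synthesis (Gclc, Gclm), 20 rose and 2 fell, with a median log2 fold change of 0.38. Of the 27 that are abundant genes, 20 rose and 0 fell, against a background of 39.1% higher and 7.90% lower. Odc1, which makes putrescine from ornithine, had 4685 and 4702 normalized counts with dopamine, against 3076 and 3079 with PBS (log2 fold change 0.61, adjusted p = 2.02e-10). Asns, which makes asparagine from aspartate and glutamine and is a known Atf4 target, had 2756 and 2875 with dopamine, against 1957 and 1938 with PBS (0.53, adjusted p = 5.59e-08). Gclc, the rate-limiting enzyme of glutathione synthesis, rose by 0.63 and Ahcy, of the methionine cycle, by 0.67. After rescaling on abundant genes, 15 of these enzymes rose and 4 fell.

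Of 42 genes of amino acid sensing by mTORC1, 8 rose and 3 fell, with a median log2 fold change of 0.12. All 11 were among the 37 that are abundant genes, so the higher calls were below the background of 39.1% and the lower calls close to that of 7.90%. Without PBS A 4 rose and 3 fell, and without dopamine B 5 rose and 4 fell. Rragd, a Rag GTPase that recruits mTORC1 to lysosomes, had 92.6 and 92.2 normalized counts with dopamine, against 333 and 342 with PBS (log2 fold change -1.86, adjusted p = 9.07e-15). Fnip1, the partner of folliculin, which acts on Rag GTPases, had 2536 and 2588 with dopamine, against 4260 and 4444 with PBS (-0.76, adjusted p = 7.4e-13). Eif4ebp1, a translation repressor that mTORC1 inactivates, rose by 0.56 and Sec13, of the GATOR2 complex, by 0.44. The counts were 2 higher and 5 lower after rescaling on abundant genes, and the median turned to -0.07. Of 10 genes of cystine handling, 5 rose and 0 fell, against 14.3% higher and 7.00% lower over all genes. Of the 6 that are abundant genes, 4 rose, against 39.1% of all abundant genes. Slc3a2, Slc7a11 and Gclc, already counted above, were among the 5. Txnrd1, a thioredoxin reductase, rose by 1.40 (adjusted p = 1.74e-17). After rescaling on abundant genes, 2 of the 10 rose and 0 fell, and fewer than 5 rose with any 1 library left out.

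**Figure D5:**
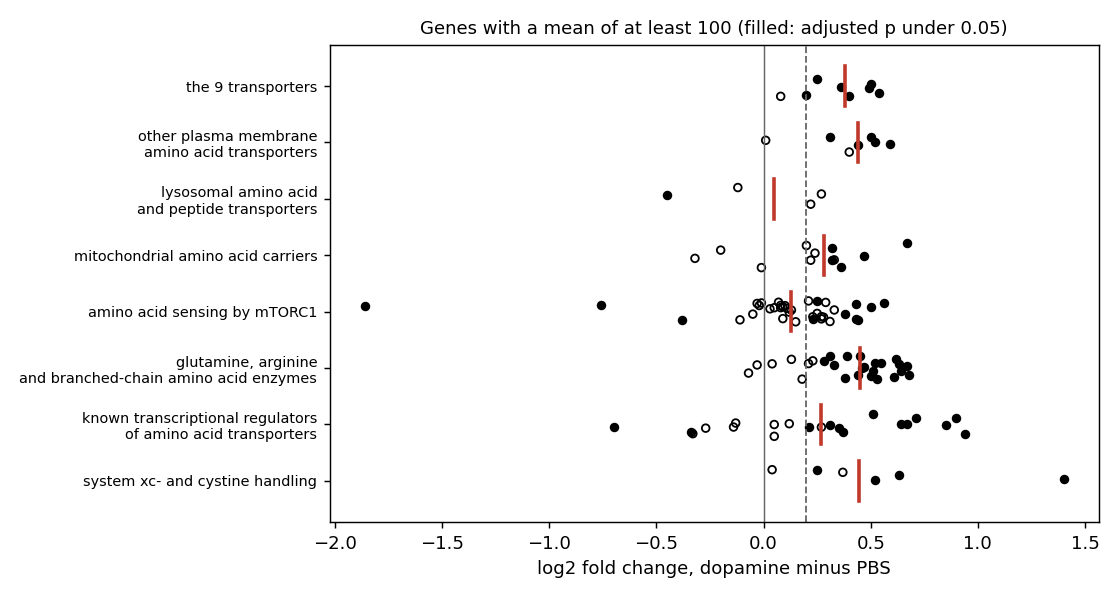
Log2 fold change, dopamine minus PBS (horizontal axis), of abundant genes in the 9 transporters and in each list of related genes; filled points passed an adjusted p of 0.05, red bars are list medians and the dashed line is the median of 0.198 of all abundant genes. The bar of the transporters stands at 0.38, that of the metabolic enzymes at 0.45 and that of the mTORC1 sensing genes at 0.13.

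Depth was 14167357 and 11492182 reads assigned to genes in the dopamine libraries and 5717408 and 13241168 in the PBS libraries, and no label states that the libraries are separate animals or cultures. The p-values then reflect the spread between these libraries alone, which may be technical. Cd4 (4586 and 4749 with dopamine, 4271 and 4236 with PBS) and Cd3e were abundant in both groups, as in helper T cells. Il4 was 784 and 723 with dopamine, against 178 and 151 with PBS. Of the 12 Th2 and helper T cell markers, 7 rose and 2 fell. Those that fell were Il1rl1 (-0.91 on the log2 scale) and Trac (-0.27), and Gata3 was nearly level (-0.08). Among the 10 of these markers that are abundant genes, 6 rose and 1 fell, where 39.1% of all abundant genes were called higher and 7.90% lower. Markers of other cells moved as well, where 14.3% of all genes were called higher and 7.00% lower. Summed platelet markers, of which 10 of 10 fell, were 1023 and 1066 normalized counts with dopamine, against 2888 and 2723 with PBS. Basophil and mast cell markers (8 of 9 fell) summed to 898 and 824 with dopamine, against 2633 and 2243 with PBS. Red cell markers (4 of 6 fell) summed to 232 and 176 with dopamine, against 612 and 473 with PBS, and myeloid markers (5 of 9 fell) to 120 and 117 with dopamine, against 272 and 265 with PBS. B cell markers (5 of 10 rose) summed to 498 and 475 with dopamine, against 243 and 213 with PBS. Cytotoxic T and NK cell markers (5 of 10 rose) summed to 1760 and 1612 with dopamine, against 584 and 517 with PBS. In the latter sum Gzma held 690 and 591 with dopamine, against 56.1 and 49.8 with PBS. Prf1 held 300 and 275 with dopamine, against 69.6 and 49 with PBS. Cd8a, Nkg7 and Eomes also rose, while Cd8b1, Ncr1, Klrb1c, Klrd1 and Klrk1 were not called. Hba-a1, Hba-a2, Hbb-bs and Hbb-bt of the red cell list, Mcpt4 of the basophil and mast cell list and Cd14 of the myeloid list were not analysed here. Of 16 T cell activation markers, all of them abundant genes, 8 rose and 5 fell. Over all abundant genes 39.1% were called higher and 7.90% lower. In bulk samples a change in the share of a cell type and a change in RNA per cell cannot be told apart, and the part of these markers in the transporter values was not tested.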

How the data were processed

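Total RNA was turned into stranded mRNA libraries (Illumina TruSeq), per the labels' protocols. Per the submitters' processing notes, FastQC 0.11.2, TopHat2 2.0.13, HTSeq 0.6, DESeq2, R 3.6.2 and mm10 were used. Whether counting used strand, and with which annotation, is not given in the sources used here. The deposited table holds a signal (read counts that the authors divided by 1 size factor per library), and the authors' log2 fold change, its SE, a Wald score and p-values, per the file headers. All values of the 4 library columns were whole multiples of 1 read within 0.01 (100%), so reads were recovered. Columns are numbered 2 and 3 and titles 1 and 2, which ties a column to a treatment but to no particular sample. There were 0 columns of other samples.

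The main test, 2-sided and without a filter, was limma 3.58.1 (R 4.3.3) with its trend option, applied to log2(value + 1). A fold change on this scale understates that of low genes. Limma drew each gene's variance toward the trend with 42.4 prior degrees of freedom, so p-values rest mostly on pooled spread. The recovered counts, which were not the deposited unit, were tested with edgeR 4.0.16 (5219 of 15329 genes called) and DESeq2 1.42.0 (3261 called) as alternatives. On simulated reads, limma recovered 76% of 100 genes changed by 0.5 on the log2 scale and 100% of 100 changed by 1, over 26207 genes. The simulation gave every gene the same dispersion (spread beyond counting error) and changed as many abundant genes up as down. Its recovery rates hold for those settings only, which differ from the real comparison. Within each treatment the libraries were not copies of one another (chi-square per degree of freedom 3.98 for dopamine and 2.64 for PBS). The members, lists and tests were chosen with earlier results of these data known. Genes named by rule are all 9 transporters and up to 4 members of each pathway list with the smallest p past the threshold. The rule also took Myc, Atf4, Slc7a11, Cd4, Cd3e, Gata3 and Il4. It further took up to 2 of each marker list with the smallest p, most of them given here only within list sums. Outside the rule, Slc7a3 was added after its value was seen, to complete a count. Also outside it, Chac1, Gcn1l1, Trib3, Eif2ak3, Slc25a1, Il1rl1, Trac and further cytotoxic T and NK cell markers are named to describe their lists. Lists were drawn up from background knowledge. Genes are neither ranked nor named for likeness of pattern, since 4 libraries in 2 groups cannot rank it. Lengths and locations are from GENCODE M21.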

Additional observations from a re-analysis of the deposited data

How the results depend on the processing

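The count of transporters called higher, 7 as reported, was 4 with upper-quartile scaling in edgeR and 3 after rescaling on abundant genes, and 4 to 6 with 1 library left out (4 without PBS A or without dopamine B). The count called lower, 0 as reported, was 1, always Slc43a1, with edgeR's TMM, upper-quartile scaling, rescaling on abundant genes, limma-voom, the replicate block and the correction for GC content and length, and 0 with each library left out. Over all genes, 3743 higher and 1834 lower became 2013 and 3149 with upper-quartile scaling and 1806 and 3178 after rescaling on abundant genes. The lower count was 719 with DESeq2, 894 among genes of at least 5 CPM and 1140 among the 11384 genes of the GC and length correction without it. With 1 library left out, the higher count ranged from 2152 to 3201 and the lower from 762 to 1389. In the main test 14.3% of all genes were called higher and 7.00% lower, and of abundant genes 39.1% higher and 7.90% lower. Over 173 genes of the pathway lists, 52 rose and 11 fell. The numbers that rose were 31 with upper-quartile scaling and 29 after rescaling on abundant genes, and 34 to 49 with 1 library left out. The numbers that fell were 20 with TMM in edgeR (13 with TMM in limma), 26 with upper-quartile scaling, 22 after that rescaling, 21 with limma-voom, 4 with DESeq2, 19 with the replicate block and 6 to 7 with 1 library left out. The block used the number in the column name, which the labels do not tie to a shared culture; deviations of same-numbered libraries correlated at 0.214 across 8492 genes, and the block called 6999 genes. Slc1a4, called under no setting, turned to -0.01 with TMM in edgeR and with limma-voom, -0.09 with upper-quartile scaling, -0.11 after rescaling on abundant genes, and -0.06 with the GC and length correction; with 1 library left out it ranged from -0.06 (without dopamine B) to 0.22. Cd4 turned to -0.06 with upper-quartile scaling and after that rescaling, and Gata3, at -0.08 as reported, ranged from -0.19 to 0.02 (without dopamine A) with 1 library left out, none of them called. Over the transporters' single values, 115 kept direction and side of the threshold, 25 fell short of it, 6 passed it newly and 6 changed sign. The cause of these shifts was not tested, apart from the rescaling itself. The GC and length settings were chosen after the data were seen. Slc43a1 had the fewest reads of the transporters, 33 to 54 a library; the part of depth in its call was not tested.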

Other observations

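Carriers that move amino acids inside the cell were measured too. Of 16 mitochondrial carriers, listed for amino acids but including the citrate carrier Slc25a1 and the glutathione carrier Slc25a40, 5 rose and 0 fell. Both of those were among the 5 (Slc25a1 at 0.32, adjusted p = 0.0462 by limma). All 5 were among the 12 that are abundant genes. Over all abundant genes 39.1% were called higher and 7.90% lower, so nothing particular to the carriers is read from these counts. Slc25a13, the aspartate and glutamate carrier citrin, had 403 and 440 normalized counts with dopamine, against 236 and 295 with PBS (log2 fold change 0.67, adjusted p = 1.79e-05 by limma). Sfxn1, a mitochondrial serine carrier, had 1585 and 1655 with dopamine, against 1335 and 1255 with PBS (0.32, adjusted p = 0.00136). Slc25a40, a glutathione carrier, rose by 0.47 and Sfxn2 by 0.36. The Sfxn2 call ended without dopamine A (adjusted p = 0.122 by limma), dopamine B (0.15) or PBS A (0.211), and that of Sfxn1 without PBS B (0.0517). The number that rose was 3 without dopamine A, without dopamine B or without PBS A, and 4 without PBS B. After rescaling on abundant genes, 1 of these carriers rose and 2 fell.

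Of 9 lysosomal amino acid and peptide transporters, 1 rose and 1 fell, where 14.3% of all genes were called higher and 7.00% lower. Slc15a3, a histidine and peptide transporter, had 57.1 and 52.4 normalized counts with dopamine, against 11.9 and 24.5 with PBS (log2 fold change 1.62, adjusted p = 4.81e-05 by limma). Ctns, the lysosomal cystine exporter, had 99.5 and 107 with dopamine, against 143 and 139 with PBS (-0.45, adjusted p = 0.0367 by limma), a call that ended when any 1 library was left out.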
